A study of Mus musculus with 9 samples.

Results

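Checkpoint and costimulatory genes encode surface proteins that restrain or reinforce a T cell after its antigen receptor has been engaged. Of the 10 symbols chosen for this group (Cd274, Pdcd1lg2, Pdcd1, Ctla4, Lag3, Havcr2, Tigit, Icos, Tnfrsf4 and Tnfrsf9), 5 were matched by name among the 2889 genes of the deposited sample table: Cd274, Pdcd1lg2, Ctla4, Tnfrsf9 and Havcr2. The other 5 symbols were not analysed here. The samples were CD3+ T cells of wild-type C57BL/6 mice, taken from spleen by negative selection. Cells of each of 3 mice were kept for 4 h in adipocyte conditioned medium, in stromal cell conditioned medium or in unconditioned medium, which gave 3 samples a group, 9 in all. The labels leave unsaid which animals or lines the conditioning cells came from. The libraries were made with a SMART-seq kit, which does not mark strand, and held 6522742 to 13758643 reads on the listed genes. RNA was sequenced in bulk, so fewer cells of a type and less RNA per cell cannot be told apart.

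PD-1 and CTLA-4 are inhibitory receptors related to the costimulatory receptor CD28. PD-L1 (Cd274) and PD-L2 (Pdcd1lg2) are the ligands of PD-1, and CTLA-4 (Ctla4) competes with CD28 for the B7 ligands. TIM-3 (Havcr2) is an inhibitory receptor of differentiated T cells and of myeloid cells, and 4-1BB (Tnfrsf9) is a costimulatory receptor of the TNF receptor superfamily that activated T cells display. PD-L1 is known for its induction by interferon gamma, in which IRF1 takes part, and T cells themselves can carry it.

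Cd274 and Pdcd1lg2 are next to each other on mouse chromosome 19 but differed in stromal medium, so their promoters are shown, beside that of Ctla4, which followed Pdcd1lg2. Each window runs from 250 bases before to 50 bases after a transcript start on the plus strand, from RefSeq's GRCm38.p6, in which all 5 symbols had a promoter entry. Capitals mark matches to 6 motifs searched on both strands: GAAANNGAA for IRF factors, TTCNNNGAA for STAT factors, GGANTTTCC for NF-kB, TGANTCA for AP-1, CACGTG for MYC and TATAAA for the TATA box.
Cd274, chr19:29367188-29367487: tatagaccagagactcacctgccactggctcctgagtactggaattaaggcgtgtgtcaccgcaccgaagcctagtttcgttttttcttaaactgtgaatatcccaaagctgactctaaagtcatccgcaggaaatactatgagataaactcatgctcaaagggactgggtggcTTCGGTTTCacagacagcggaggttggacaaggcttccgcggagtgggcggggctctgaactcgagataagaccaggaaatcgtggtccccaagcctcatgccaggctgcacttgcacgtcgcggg
Pdcd1lg2, chr19:29410669-29410968: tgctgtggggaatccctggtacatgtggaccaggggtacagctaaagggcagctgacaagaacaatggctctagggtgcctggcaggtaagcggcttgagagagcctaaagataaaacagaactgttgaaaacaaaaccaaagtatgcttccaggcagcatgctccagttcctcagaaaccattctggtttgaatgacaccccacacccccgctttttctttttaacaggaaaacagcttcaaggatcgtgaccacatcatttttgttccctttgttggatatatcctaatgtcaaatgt
Ctla4, chr1:60908775-60909074: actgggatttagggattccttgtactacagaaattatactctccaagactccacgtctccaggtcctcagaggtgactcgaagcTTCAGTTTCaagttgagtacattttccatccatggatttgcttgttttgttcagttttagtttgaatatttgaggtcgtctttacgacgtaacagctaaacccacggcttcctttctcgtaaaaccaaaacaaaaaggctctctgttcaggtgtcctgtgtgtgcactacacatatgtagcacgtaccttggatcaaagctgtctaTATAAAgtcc

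The Cd274 window held 1 match, TTCGGTTTC, which is the IRF motif on the other strand and begins 76 bases before the start. The Ctla4 window held the IRF motif as TTCAGTTTC, 166 bases before the start, and TATAAA at 41 bases after it. The Pdcd1lg2 window held 0 of the 6 motifs. Of the windows not shown, that of Havcr2, which also rose in stromal medium, held only AP-1 letters, TGATTCA. For Tnfrsf9, window 1 held 0 matches and window 2 held STAT letters, TTCCAAGAA, and AP-1 letters, TGAGTCA. The IRF motif was absent from the windows of both genes. Any link between motifs and the changes was not tested. The IRF motif was present in 8.56% and TATAAA in 13.6% of all 32851 promoter windows in the RefSeq table. STAT letters were present in 8.3%, NF-kB letters in 1.25%, AP-1 letters in 7.81% and MYC letters in 7.15% of them. These are matches of letters in short windows and carry no measurement of binding.

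The 5 genes fell into 3 patterns. Cd274 rose in both conditioned media. Pdcd1lg2, Ctla4 and Tnfrsf9 rose in adipocyte medium and did not pass the test in stromal medium on the authors' scaling. Havcr2 rose in both media, and on the authors' scaling further in stromal than in adipocyte medium. All values are normalized counts, reads per gene divided by the authors' size factor of the sample. Differences are log2 fold changes from limma on log2(value + 1), fitted over the 2868 genes of the table with a mean of at least 1, and a gene was called at a Benjamini-Hochberg adjusted p under 0.05.

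**Figure D1:**
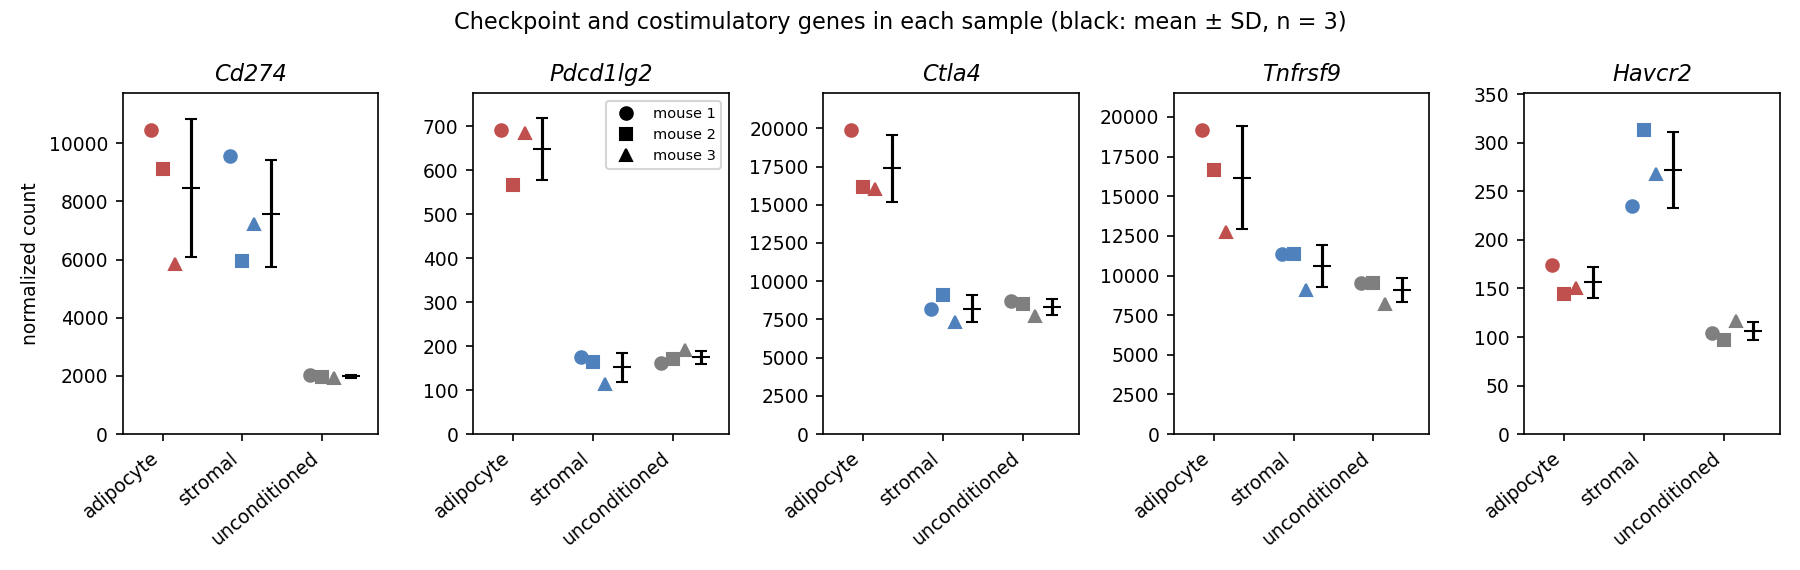
Normalized counts (y axis, from 0) of the 5 genes in adipocyte, stromal and unconditioned medium, with 1 symbol per mouse and the mean ± SD of 3 samples in black. The conditioned samples of Cd274 lie at 5837 or more, above the unconditioned samples at 2034 or less, while Pdcd1lg2 stands apart only in adipocyte medium, at 567 to 692.

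Cd274 (ENSMUSG00000016496) had 10457, 9105 and 5837 normalized counts in adipocyte medium in mice 1, 2 and 3. It had 9570, 5962 and 7216 in stromal medium, against 2034, 1968 and 1939 in unconditioned medium. Every conditioned sample lay above every unconditioned sample, the ranges of both conditioned media overlapped, and the unconditioned samples were close together. The mean was 8466 ± 2376 in adipocyte medium and 1980.1 ± 48.8 in unconditioned medium (SD, n = 3 each), a log2 fold change of 2.05 (SE 0.20, adjusted p = 5.47e-07 in limma), which is 4.15-fold. After rescaling by the median of ratios over the listed genes it was 2.98, also called. That rescaling takes most genes as unchanged, which genes chosen for having changed need not meet. In stromal medium the mean was 7583 ± 1832, with a log2 fold change of 1.91 over unconditioned medium (SE 0.20, adjusted p = 6.61e-06 in limma), which is 3.76-fold.

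Within a mouse, Cd274 was higher in 3 of 3 pairs for each medium, by 1.59 to 2.36 on the log2 scale in adipocyte medium and by 1.60 to 2.23 in stromal medium. Adipocyte over stromal medium gave 0.14 (95% interval -0.28 to 0.57, limma adjusted p = 0.490), higher in 2 of 3 mice. Mouse 3 was lowest in adipocyte medium and mouse 2 in stromal medium. The difference between the conditioned media turned on single samples, the highest as well as the lowest. It was 0.39 (limma adjusted p = 0.0312) without adipocyte replicate 3 and -0.02 (limma adjusted p = 0.945) without stromal replicate 2. Without adipocyte replicate 1 it was -0.03 (limma adjusted p = 0.892), and without stromal replicate 1 it was 0.33 (limma adjusted p = 0.130). The median of ratios gave 0.71 (limma adjusted p = 0.00602). GENCODE vM21 annotates an antisense gene, AC119228.1, over 14.1% of the Cd274 exon length, and since the libraries do not mark strand, reads of the 2 genes there cannot be told apart.

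Pdcd1lg2 (ENSMUSG00000016498), the gene of the other PD-1 ligand, had 692, 567 and 686 normalized counts in adipocyte medium. It had 176, 164 and 115 in stromal medium and 161, 171 and 191 in unconditioned medium. The adipocyte samples stood clear of the rest, while the stromal and unconditioned samples overlapped. Adipocyte over unconditioned medium gave a log2 fold change of 1.89 (SE 0.18, adjusted p = 6.17e-07 in limma), or 3.69-fold, and 2.81 after the median of ratios. Adipocyte over stromal medium gave 2.11 (SE 0.18, adjusted p = 4.70e-07 in limma), or 4.30-fold, and both differences were positive in 3 of 3 mice. Stromal over unconditioned medium gave -0.22 (95% interval -0.62 to 0.18, limma adjusted p = 0.326), positive in 1 mouse and negative in the other two. The sign of this last value depended on the scaling and was 0.14 (limma adjusted p = 0.566) after the median of ratios.

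The ratio of Cd274 to Pdcd1lg2 within a sample is free of the size factor, which divides both genes alike. It was 15.1, 16.1 and 8.51 in adipocyte medium and 54.3, 36.3 and 62.8 in stromal medium, against 12.6, 11.5 and 10.2 in unconditioned medium. The stromal samples lay above all others, and the adipocyte range enclosed the unconditioned one. An exact two-sided permutation test of 3 samples against 3 gave p = 0.1 for stromal against unconditioned medium and p = 0.1 for adipocyte against stromal medium, the smallest p that free permutation of 6 samples allows. For adipocyte against unconditioned medium the exact permutation p was 0.6. With signs flipped within mice, which keeps the pairing, the exact p was 0.25, 0.25 and 0.5 in the same order, and 0.25 is the smallest that 3 pairs allow. The ratio was chosen after the values of both genes had been seen.

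**Figure D2:**
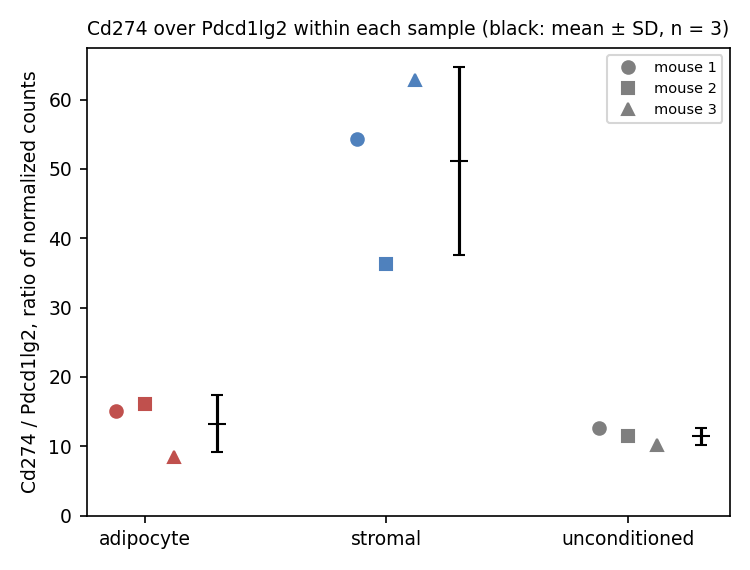
Normalized count of Cd274 divided by that of Pdcd1lg2 (y axis) in each sample, with 1 symbol per mouse. The stromal samples lie between 36.3 and 62.8 and the other 6 samples between 8.51 and 16.1.

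Ctla4 (ENSMUSG00000026011), the gene of the receptor that competes with CD28, had 19892, 16183 and 16045 normalized counts in adipocyte medium. It had 8175, 9094 and 7338 in stromal medium and 8683, 8539 and 7740 in unconditioned medium. As for Pdcd1lg2, the adipocyte samples were separate and the other groups overlapped. The log2 fold change was 1.06 (SE 0.11, adjusted p = 7.53e-07 in limma), or 2.08-fold, for adipocyte over unconditioned medium (1.98 after the median of ratios), and 1.08 (SE 0.11, adjusted p = 1.10e-06 in limma) for adipocyte over stromal medium, each positive in 3 of 3 mice. Stromal over unconditioned medium gave -0.02 (95% interval -0.25 to 0.20, limma adjusted p = 0.854). With the median of ratios this became 0.33 (limma adjusted p = 0.0350). DESeq2 on the recovered reads, which scales in the same way, gave 0.34 (DESeq2 adjusted p = 0.0196). The call for Ctla4 in stromal medium thus depended on the scaling.

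Per unit of Ctla4, Cd274 was higher in both conditioned media whatever the scaling. The ratio of Cd274 to Ctla4 was 0.526, 0.563 and 0.364 in adipocyte medium and 1.17, 0.656 and 0.983 in stromal medium, against 0.234, 0.230 and 0.250 in unconditioned medium. The 3 groups did not overlap, and each pair of groups gave an exact permutation p of 0.1 over samples and 0.25 within mice, the smallest possible in each case. This ratio too was chosen after the values had been seen.

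Havcr2 (ENSMUSG00000020399), the TIM-3 gene, had 174, 144 and 150 normalized counts in adipocyte medium. It had 235, 313 and 268 in stromal medium, against 104, 97.4 and 116 in unconditioned medium. The 3 groups did not overlap, with the stromal samples highest and the unconditioned samples lowest. Stromal over unconditioned medium gave a log2 fold change of 1.35 (SE 0.18, adjusted p = 4.65e-05 in limma), or 2.54-fold. Adipocyte over unconditioned medium gave 0.55 (SE 0.18, adjusted p = 0.00971 in limma), or 1.47-fold, and adipocyte over stromal medium gave -0.79 (SE 0.18, adjusted p = 0.00113 in limma).

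Every mouse showed these 3 directions for Havcr2. Its adipocyte call was lost when mouse 1 was left out of all groups (0.47, limma adjusted p = 0.0756), though it was 1.47 and called after the median of ratios, and its difference between the conditioned media did not pass after the median of ratios (-0.23, limma adjusted p = 0.273). Havcr2 rested on the fewest reads of the 5 genes in adipocyte medium, with 121, 160 and 154, and in unconditioned medium, with 73, 112 and 131. In stromal medium it had 281, 475 and 224 reads, and Pdcd1lg2 had fewer, at 211, 249 and 96.

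Tnfrsf9 (ENSMUSG00000028965), the 4-1BB gene, had 19180, 16629 and 12732 normalized counts in adipocyte medium. It had 11356, 11380 and 9072 in stromal medium and 9545, 9525 and 8215 in unconditioned medium. The adipocyte samples lay above all others, mouse 3 was lowest in each medium, and the stromal and unconditioned ranges overlapped. The log2 fold change was 0.81 (SE 0.14, adjusted p = 1.01e-04 in limma), or 1.76-fold, for adipocyte over unconditioned medium (1.74 after the median of ratios), and 0.60 (SE 0.14, adjusted p = 0.00146 in limma), or 1.51-fold, for adipocyte over stromal medium (1.17 after the median of ratios). Stromal over unconditioned medium gave 0.22 (95% interval -0.09 to 0.52, limma adjusted p = 0.207), positive in 3 of 3 mice at 0.14 to 0.26. That value passed the test after the median of ratios, at 0.57 (limma adjusted p = 0.00684).

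**Figure D3:**
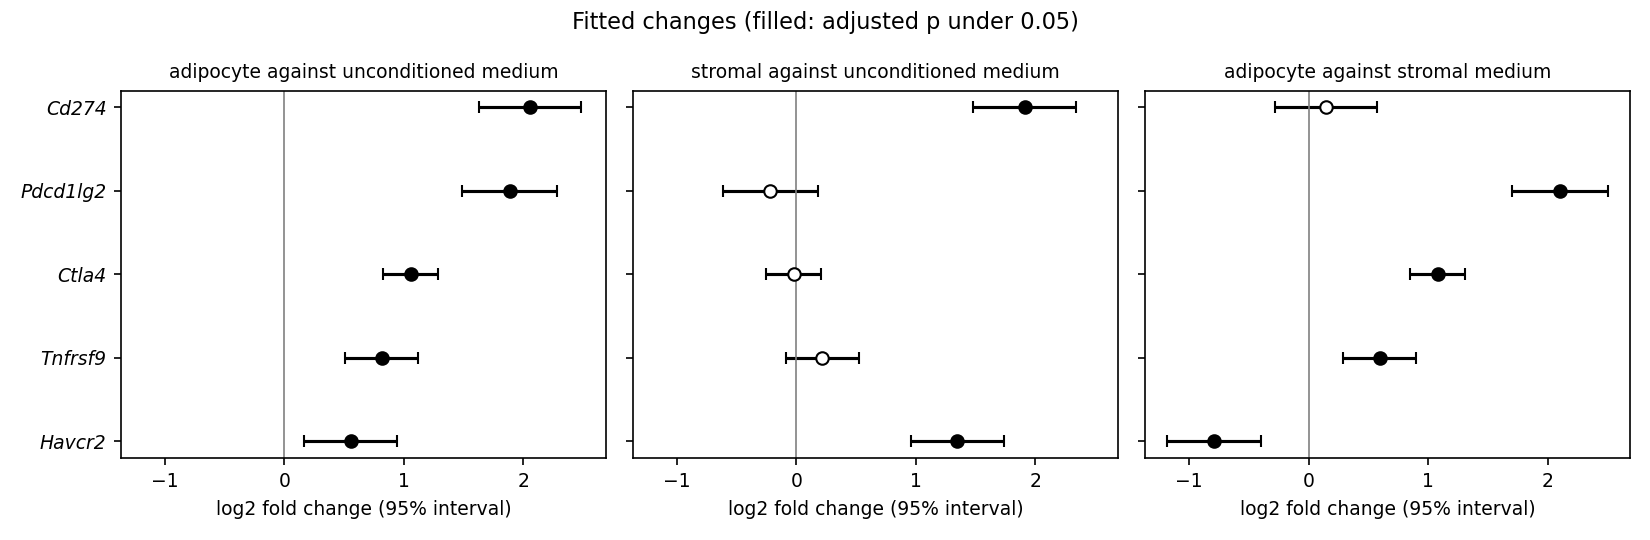
Fitted log2 fold changes of the 5 genes (x axis) with 95% intervals in the 3 comparisons, filled where the adjusted p was under 0.05. In adipocyte against unconditioned medium all 5 are filled, at 0.55 to 2.05. In stromal against unconditioned medium Cd274 and Havcr2 are filled, and in adipocyte against stromal medium Havcr2 lies below 0, at -0.79.

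The number of calls has to be read against the table, which holds genes chosen by the authors for having changed. In adipocyte over unconditioned medium 5 of 5 members were called, all higher, where 97.2% of all tested genes were called and 33.8% were called higher. In stromal over unconditioned medium 2 of 5 were called, both higher, where 57.7% were called and 21.1% were called higher. In adipocyte over stromal medium 3 of 5 were called higher and 1 lower, where 91% were called and 33.8% were called higher. The count of calls in either direction was thus near the background in each comparison. The authors' deposited tables of changed genes list Cd274, Pdcd1lg2, Ctla4 and Tnfrsf9 for adipocyte medium and Cd274 and Havcr2 for stromal medium, so the calls for those pairs repeat a selection made on the same samples.

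In direction, the median log2 fold change of the 5 members was 1.06 in adipocyte over unconditioned medium, where the median of all tested genes was -1.03. It was 0.22 in stromal over unconditioned medium, where all tested genes had -0.17, and 0.60 in adipocyte over stromal medium, where all had -0.60. Cd274 had the largest change of the 5 over unconditioned medium in both conditioned media. Its log2 fold change ranked 193 from the top of 2868 in adipocyte medium and 72 in stromal medium. On the authors' scaling 969 genes were called higher and 1818 lower in adipocyte over unconditioned medium. The median of ratios, which moved log2 fold changes by a median of 0.93 there, gave 1078 higher and 1047 lower. In stromal over unconditioned medium the counts were 606 higher and 1049 lower on the authors' scaling and 1129 and 561 after a shift of 0.36. In adipocyte over stromal medium they were 968 and 1641, and 1172 and 1090 after a shift of 0.57. A fall of less than 0.93 in adipocyte medium, as given below for Il27ra, Cd27 and Cdk4, or of less than 0.36 in stromal medium, as for Cd27, is smaller than that shift. The median of ratios was taken over genes chosen for having changed, while it assumes that most genes are unchanged. Its values show how far a result depends on the scaling. Which scaling is nearer the truth was not tested.

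**Figure D4:**
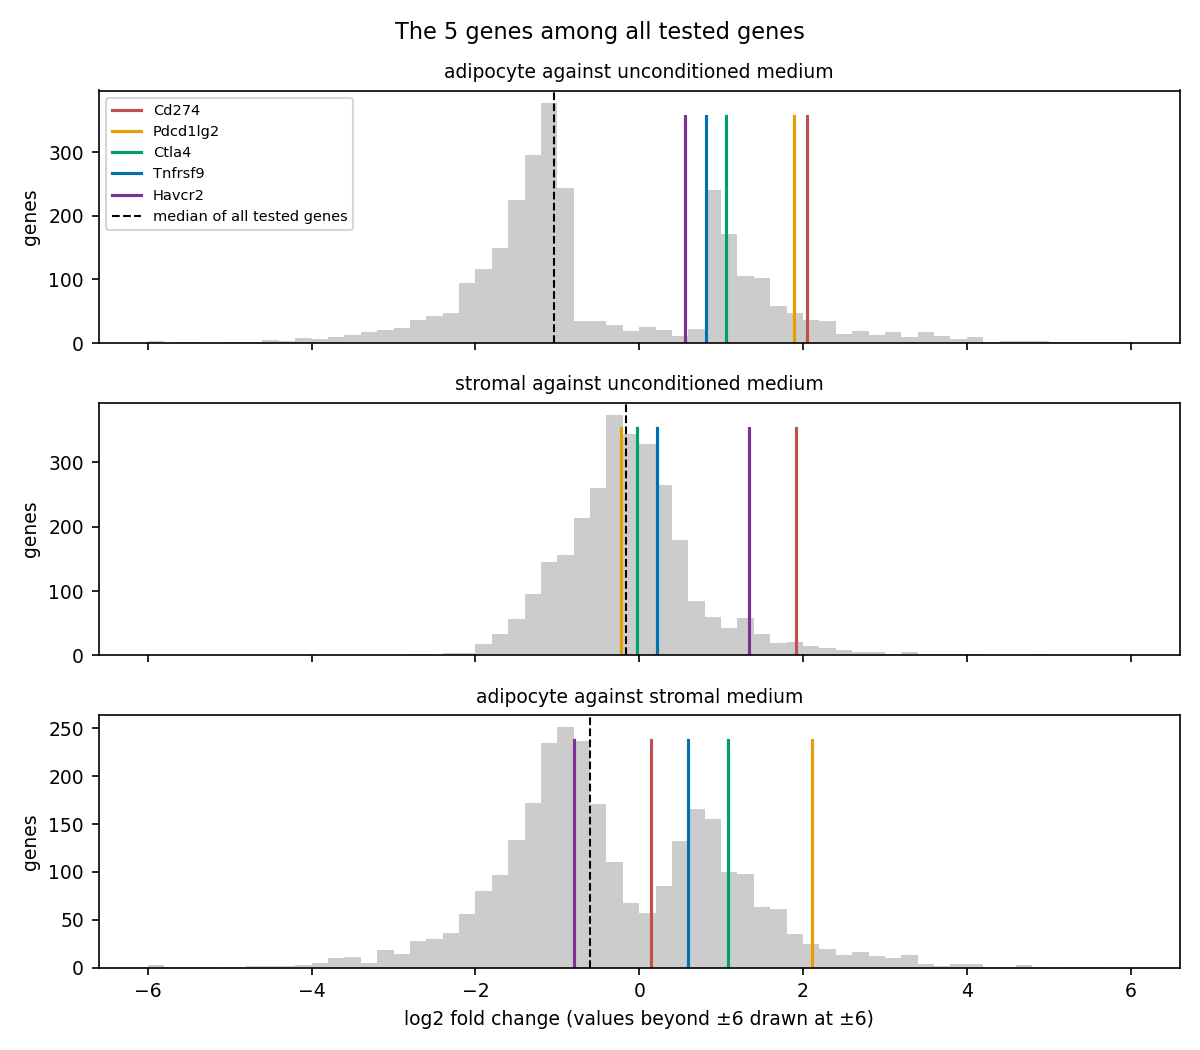
Number of tested genes (y axis) by log2 fold change (x axis) in the 3 comparisons, with a coloured line for each of the 5 genes and a dashed line at the median of all tested genes. In adipocyte against unconditioned medium the 5 lines lie at 0.55 to 2.05, right of the median at -1.03, and few genes lie near 0 because the table holds genes listed as changed.

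Levels of different genes were compared as normalized counts per kilobase of exon (GENCODE vM21). In adipocyte medium the order of levels was Ctla4 at 7456 ± 937, Tnfrsf9 at 5944 ± 1193, Cd274 at 2337 ± 656, Pdcd1lg2 at 331 ± 35.9 and Havcr2 at 57.4 ± 5.81 (SD, n = 3). In stromal medium it was Tnfrsf9 at 3895 ± 487, Ctla4 at 3520 ± 377, Cd274 at 2093 ± 506, Havcr2 at 99.97 ± 14.5 and Pdcd1lg2 at 77.4 ± 16.5. In unconditioned medium it was Ctla4 at 3571 ± 218, Tnfrsf9 at 3341 ± 280, Cd274 at 547 ± 13.5, Pdcd1lg2 at 88.9 ± 7.57 and Havcr2 at 38.9 ± 3.49. The ranges of mean ± SD of Ctla4 and Tnfrsf9 overlapped in every medium. Within a sample, however, Ctla4 was the higher per kb in 3 of 3 adipocyte and 3 of 3 unconditioned samples, and Tnfrsf9 in 3 of 3 stromal samples. The ratio of their normalized counts, Tnfrsf9 over Ctla4, was 0.928 ± 0.121 in adipocyte, 1.29 ± 0.0842 in stromal and 1.09 ± 0.0278 in unconditioned medium (SD, n = 3), and the 3 groups did not overlap. The ranges of mean ± SD of Havcr2 and Pdcd1lg2 also overlapped in stromal medium. Those of the other neighbours in these orders did not overlap. PD-L1 transcript therefore stayed below the transcripts of both T cell receptors CTLA-4 and 4-1BB in all 3 media, also where it was raised.

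Genes on a list of interferon gamma, JAK, STAT and IRF signalling were mostly raised in both media, by amounts that differed between genes. The list is wider than the interferon gamma route known to induce Cd274. Of 27 genes on that list 12 were tested, of which 8 were called higher and 2 lower in adipocyte over unconditioned medium (median log2 fold change 1.02) and 9 higher and 2 lower in stromal over unconditioned medium (median 1.08). Of all tested genes 97.2% were called and 33.8% called higher in adipocyte medium, and 57.7% and 21.1% in stromal medium. After the median of ratios the adipocyte count was 11 higher and 1 lower, and the stromal count was the same. The authors' lists of changed genes held 8 genes of this list for adipocyte medium and 9 for stromal medium. The calls for those genes thus repeat a selection made on the same samples. Irf1, the interferon response factor that acts on Cd274, had 54176, 52652 and 37505 normalized counts in adipocyte medium and 44975, 37867 and 41540 in stromal medium, against 17375, 17512 and 16388 in unconditioned medium. It rose in both conditioned media, with log2 fold changes of 1.47 (SE 0.13, adjusted p = 2.94e-07 in limma) in adipocyte medium and 1.28 (SE 0.13, adjusted p = 6.24e-06 in limma) in stromal medium. The conditioned media overlapped, as they did for Cd274. The part of Irf1 and of the other genes of this list in the change of Cd274 was not tested.

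Stat2, which acts in type I interferon signalling, had 5190.4, 5323 and 3180.1 normalized counts in adipocyte medium and 10615, 8643 and 9763 in stromal medium, against 4134, 3844 and 3772 in unconditioned medium. Its stromal samples were all above the rest, and the log2 fold change over unconditioned medium was 0.18 in adipocyte and 1.30 in stromal medium. Socs1, which restrains JAK kinases, had 0.16 in adipocyte and 1.97 in stromal medium. On the authors' scaling only the stromal values of Stat2 and Socs1 passed the test. After the median of ratios the adipocyte values were 1.11 and 1.09 and passed too. Adipocyte over stromal medium gave -1.12 and -1.81, each called lower (limma adjusted p at most 3.33e-05), and -0.55 and -1.24 after the median of ratios, still called. Gbp2, an interferon-induced GTPase, had 11136, 13495 and 4343 normalized counts in adipocyte medium and 100207, 39308 and 56331 in stromal medium, against 6924, 5869 and 5057 in unconditioned medium. Its stromal samples were all higher than the rest, with a log2 fold change of 3.36 (SE 0.38, adjusted p = 1.42e-05 in limma), and the adipocyte and unconditioned samples overlapped.

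Ifng, the gene of interferon gamma itself, was highest in adipocyte medium. It had 2120, 1609 and 1698 normalized counts there and 321, 381 and 360 in stromal medium, against 97.1, 132 and 119 in unconditioned medium. The groups did not overlap, and the log2 fold change was 3.95 (SE 0.16, adjusted p = 3.04e-09 in limma) in adipocyte and 1.61 (SE 0.16, adjusted p = 4.62e-06 in limma) in stromal medium. The receptor chain gene Ifngr2 rose in adipocyte medium (1.05) and had -0.16 in stromal medium, which was not called. Stat3, Stat5a and Socs3 rose in both media, with 1.58, 1.58 and 1.17 in adipocyte and 0.88, 1.31 and 0.88 in stromal medium. Irf8 and Irf9 also rose in both, with 1.00 and 0.46 in adipocyte and 1.36 and 0.85 in stromal medium. Il27ra, a cytokine receptor chain, and the kinase gene Tyk2 fell in both media on the authors' scaling, with -0.58 and -1.56 in adipocyte and -0.88 and -0.70 in stromal medium. After the median of ratios Il27ra was called higher in adipocyte medium, at 0.34, and Tyk2 remained lower, at -0.63. Jak2 was not analysed here.

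A list of 36 genes of NF-kB, AP-1, MYC, hypoxia and T cell activation factors had 17 tested members, none of them a hypoxia factor. Of these, 17 were called higher in adipocyte over unconditioned medium (median 1.82) and 17 in adipocyte over stromal medium (median 1.60), where 33.8% of all tested genes were called higher in each. In stromal over unconditioned medium 6 were called higher (median 0.17), against 21.1% of all tested genes, and 0 were called lower in any comparison. After the median of ratios the counts were 17, 17 and 10. Junb, an AP-1 subunit, had 114571, 81464 and 111503 normalized counts in adipocyte medium and 28528, 35319 and 28209 in stromal medium, against 19798, 19779 and 19617 in unconditioned medium. The groups were separate, with log2 fold changes of 2.36 in adipocyte and 0.63 in stromal medium over unconditioned medium, both called. Atf3, a stress-induced factor, had 2.34 and 0.86 in adipocyte and stromal medium, both called. The nuclear receptors Nr4a2 and Nr4a3, early genes of T cell receptor signalling, had 2.21 and 2.51 in adipocyte medium, both called, and 0.15 and -0.33 in stromal medium, neither called. All 17 were in the authors' list for adipocyte medium and 0 in that for stromal medium. The 17 calls over unconditioned medium thus repeat a selection made on the same samples. The comparison of adipocyte with stromal medium shares the adipocyte samples with that selection. Neither count can therefore be read as an excess over all tested genes.

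**Figure D5:**
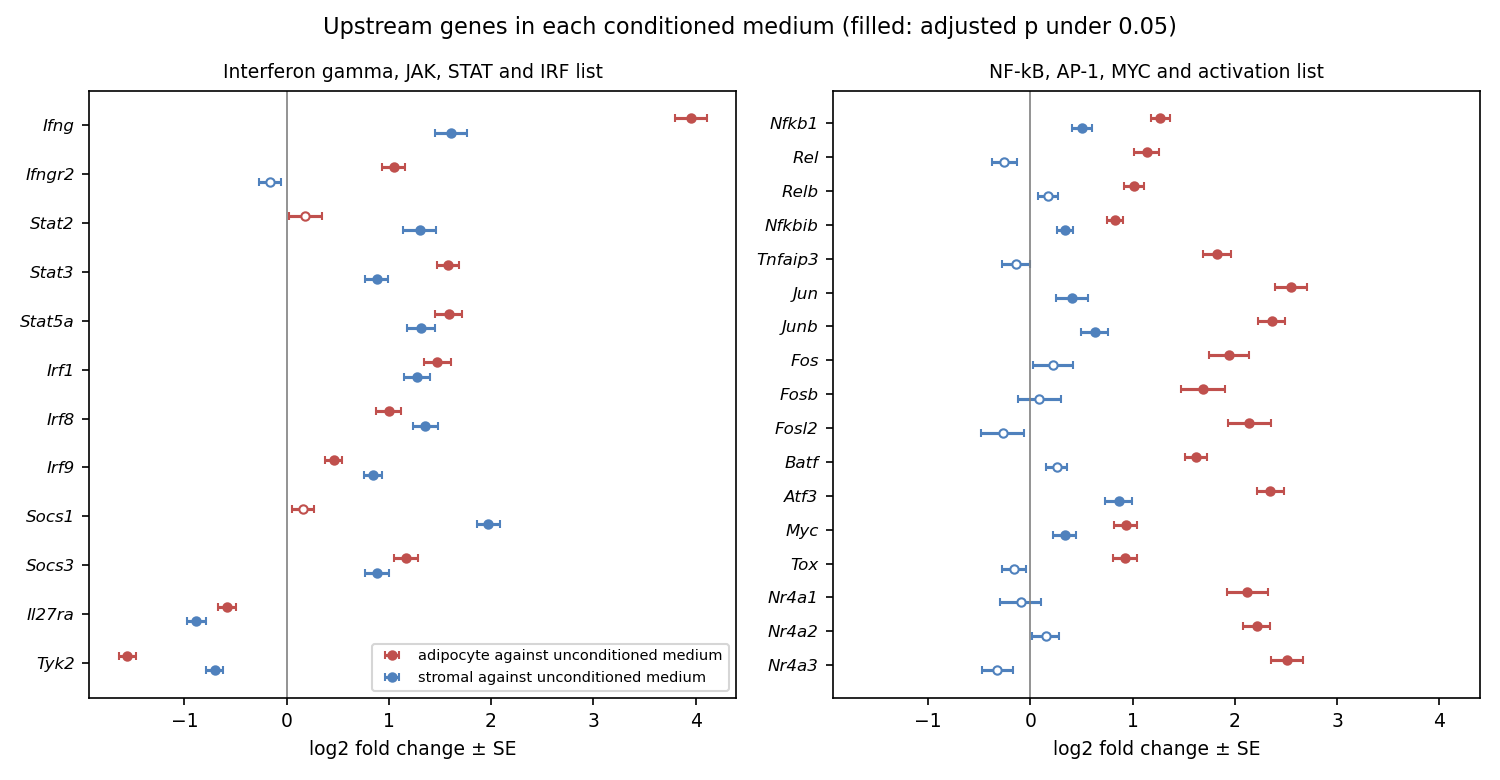
Log2 fold changes ± SE (x axis) of the 12 tested interferon, JAK, STAT and IRF genes and the 17 tested NF-kB, AP-1, MYC and T cell activation genes, in adipocyte (red) and stromal (blue) medium, each against unconditioned medium, filled where the adjusted p was under 0.05. On the authors' scaling, which is shown, Stat2 and Socs1 are filled for stromal medium alone, and all 17 genes on the right are filled for adipocyte medium. After the median of ratios Stat2 and Socs1 were called in adipocyte medium too, but stayed lower there than in stromal medium.

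Other genes of the B7 and CD28 families and related receptors did not share a direction. Of 30 genes 14 were tested, and 5 were called higher and 8 lower in adipocyte over unconditioned medium (median -0.97), or 6 and 6 after the median of ratios. In stromal over unconditioned medium 1 was called higher and 4 lower on the authors' scaling, and 5 higher and 3 lower after the median of ratios, so the balance there turned with the scaling. Among all tested genes, on the authors' scaling, 97.2% were called and 33.8% called higher in adipocyte medium, and 57.7% and 21.1% in stromal medium. Lgals9, a TIM-3 ligand gene, had 3237, 3118 and 2993 normalized counts in adipocyte medium, 6483, 6205 and 6277 in stromal medium and 6529, 6794 and 7376 in unconditioned medium. It fell by 1.15 on the log2 scale in adipocyte medium (limma adjusted p = 3.30e-08) and had -0.12 in stromal medium, not called. Cd96, a nectin-binding receptor gene, fell by 1.28 in adipocyte and by 1.25 in stromal medium. Cd47, the signal that restrains phagocytes, fell by 1.26 in adipocyte medium and had -0.20 in stromal medium, not called. Most of these falls in adipocyte medium went with the scaling. After the median of ratios Lgals9, Cd96 and Cd47 had -0.22, -0.35 and -0.33 there, still called lower. In stromal medium Lgals9 was then called higher, at 0.23 (limma adjusted p = 0.0175), and Cd96 stayed lower, at -0.89. Slamf7, a SLAM family receptor gene, rose by 1.87 in adipocyte and by 0.46 in stromal medium.

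The TNF superfamily list, to which Tnfrsf9 is related, had 14 of 31 genes tested. In adipocyte over unconditioned medium 8 were called higher and 6 lower (median 1.08), or 8 and 2 after the median of ratios. In stromal over unconditioned medium 5 were called higher and 4 lower (median -0.04), or 7 and 3 after the median of ratios. The shares of all tested genes, on the authors' scaling, were 97.2% called and 33.8% called higher in adipocyte medium, and 57.7% and 21.1% in stromal medium. Tnfsf11, the RANK ligand gene, had 6183, 3638 and 4898 normalized counts in adipocyte medium and 2117, 2214 and 1693 in stromal medium, against 1170, 1148 and 983 in unconditioned medium. The groups were separate, with log2 fold changes of 2.13 in adipocyte and 0.86 in stromal medium, both called. Lta, the lymphotoxin alpha gene, rose by 1.03 in adipocyte medium and fell by 0.87 in stromal medium. The costimulatory receptor gene Cd27 fell by 0.87 in adipocyte and by 0.27 in stromal medium, and Tnfrsf13b, a receptor gene best known in B cells, by 1.49 and 0.72. After the median of ratios Cd27 had 0.06 and 0.09, neither called, and Tnfrsf13b had -0.56 and -0.37, both still called lower.

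Of 25 genes listed for control of PD-L1 protein or transcript stability 2 were tested, and Cmtm6 was not analysed here. Zfp36, whose product destabilizes AU-rich transcripts, rose by 1.49 in adipocyte medium and had -0.17 in stromal medium, not called. Cdk4, a cyclin D kinase gene, fell by 0.92 in adipocyte medium and rose by 0.40 in stromal medium.

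Around Cd274 on chromosome 19, RefSeq's order of protein-coding genes places Pdcd1lg2, Ric1 and Ermp1 next on the downstream side. Of 23 genes listed for this stretch 6 were tested, with 4 called higher and 2 lower in adipocyte over unconditioned medium and 3 higher and 0 lower in stromal over unconditioned medium. Among all tested genes 97.2% were called and 33.8% called higher in adipocyte medium, and 57.7% and 21.1% in stromal medium. Ric1, which acts in Golgi transport, rose in both media, by 1.41 in adipocyte and 0.63 in stromal medium. Uhrf2, a ubiquitin ligase gene, also rose in both, by 0.92 and 0.30. Ermp1, an endoplasmic reticulum peptidase gene, fell by 1.52 in adipocyte medium and had -0.26 in stromal medium, not called. In adipocyte medium genes of this stretch thus moved in different directions, also after the median of ratios, with 4 called higher and 1 lower. In stromal medium none of the 6 was called lower, where 1049 of all 2868 tested genes were.

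The genes most like each member over the 9 samples were found by the root mean square difference of log2 values after centring each gene. For Cd274 they were Tent5b, Cdkn1a, F11r, Csrp2 and Nrip3, at 0.24 to 0.27 log2 units. Cdkn1a, the gene of the cell cycle inhibitor p21, had log2 fold changes of 2.03 in adipocyte and 1.67 in stromal medium. For Pdcd1lg2 they were Arl5b, Ifrd1, Tnfaip3, Chd2 and Tnfrsf10b, at 0.14 to 0.20. Tnfaip3, the gene of the NF-kB inhibitor A20, had 1.82 in adipocyte medium and -0.14 in stromal medium. For Ctla4 they were Lars2, Inpp5a, Cytip, Gimap6 and Sbds, at 0.06 to 0.10, the closest matches of any member. For Tnfrsf9 they were Gpr65, Pgm2l1, Vgll4, Cpeb4 and Cstf3, at 0.09 to 0.15, and for Havcr2 Metrnl, Sgsm3, Gimap9, Cmss1 and Mthfd2, at 0.18 to 0.21. Between members the smallest difference was 0.22, for Ctla4 and Tnfrsf9, and the largest 1.20, for Pdcd1lg2 and Havcr2. Cd274 was nearer to Havcr2, at 0.70, than to its neighbour Pdcd1lg2, at 1.02.

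Cd274, Pdcd1lg2 and Havcr2 can also be made by myeloid and dendritic cells, and the markers of such cells moved with the media. Of 19 macrophage markers 6 were in the table (Cd14, Fcgr3, Adgre1, Csf1r, Lyz2 and Spi1), and their summed normalized counts were 569.5 to 947 in adipocyte medium and 3698 to 8817 in stromal medium, against 3541 to 7189 in unconditioned medium. In stromal medium Cd14 was called higher (1.99) and Fcgr3 and Adgre1 lower (-1.03 and -1.53), so that sum holds members that moved in opposite directions. Of 15 dendritic cell markers 9 were in the table, Irf8 among them, and summed to between 4763 and 5868 in adipocyte, 9352 and 11869 in stromal, and 8104 and 8426 in unconditioned medium. The mean of Irf8, which is also on the interferon list, was 2270.3 in adipocyte, 2939 in stromal and 1134 in unconditioned medium. In stromal medium Flt3 and Cd209a were called lower (-0.98 and -1.44), and Xcr1 was called higher in both conditioned media. Of 16 B cell markers 6 were in the table, and summed to between 535 and 557 in adipocyte, 1634 and 2804 in stromal, and 2075 and 2874 in unconditioned medium. Of 17 T cell markers 4 were in the table, Cd3e, Cd3g, Cd8a and Cd8b1, and summed to between 32578 and 35237 in adipocyte, 72070 and 73297 in stromal, and 86513 and 97969 in unconditioned medium. The T cell markers were thus the highest sum in every sample, and 0 markers of these 4 lists were at 0 in all samples of a group. All these sums are on the authors' scaling. After the median of ratios, adipocyte over unconditioned medium had 4 of 4 T cell, 4 of 6 B cell, 4 of 6 macrophage and 5 of 9 dendritic cell markers called lower. Called higher there were 1 macrophage marker, Cd14 (1.26), and 2 dendritic cell markers, Irf8 (1.92) and Xcr1 (2.46). With the same rescaling and comparison, 1047 of all 2868 tested genes were called lower and 1078 higher. The part of other cells in the results for Cd274, Pdcd1lg2 and Havcr2 was not tested.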

How the data were processed

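The authors' deposited table gives 1 value per gene and sample, here a signal: reads per gene divided by a size factor. It holds 2889 genes and a cluster number, an authors' score that was used only as a label. The authors' deposited tables of changed genes (3220 for adipocyte and 602 for stromal medium) give a log2 fold change, its SE and a p-value per gene, with a test score that was not used. Tools named per the submitters' processing notes are DESeq2, featureCounts, Trimmomatic and FastQC, and builds hg38, GRCh38 and GRCm39, without saying which served for what. Aligner, annotation and strand setting were not given in the sources used here.

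Whole reads were recovered from the deposited values: 100% lay within 0.01 reads of a whole number, and reads on listed genes were 6522742 to 13758643 a sample. Since 3 against 3 samples set the precision, intervals come from the spread between samples. Genes with a mean of at least 1 (2868) were tested with limma 3.58.1 in R 4.3.3 on log2(value + 1), with all 9 samples in the fit and Benjamini-Hochberg adjustment over all tested genes. Small changes of low genes are understated on that scale. As alternatives, edgeR 4.0.16 and DESeq2 1.42.0 were run on the recovered reads, and the scaling, pseudocount, filter and left-out replicates were varied. The code was tested on simulated data. Ratios were tested by exact permutation over samples and by exact sign flips within mice, which cannot go below 0.1 and 0.25 here.

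Replicate numbers mark the same mouse in the labels. Deviations of same-numbered samples correlated across genes at -0.12 to 0.26, and the fit with the mouse as a block was an alternative. No 2 samples of a group agreed within counting noise (chi-square per degree of freedom 10.2 to 96.7). Files carry no coordinates. Promoters come from RefSeq's GRCm38.p6, an older build than the GRCm39 named in the notes.

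The members and gene lists were chosen with earlier results of these data known. Named were all members, the tested genes of the interferon list with Gbp2 (1 gene that the rule names is not reported here), up to 4 genes with the smallest adjusted p from each other list, and the 5 genes most like each member.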

Additional observations from a re-analysis of the deposited data

How the results depend on the processing

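The higher levels of Cd274 in adipocyte and stromal medium over unconditioned medium kept their direction and call in 19 of 19 alternatives each, at 1.88 to 3.02 and 1.73 to 2.29 on the log2 scale. So did all members in adipocyte over unconditioned medium except Havcr2, which ranged over 0.47 to 0.65 with a replicate left out, lost its call without replicate 1, and was 1.47 under the median of ratios, 1.00 under edgeR with TMM and 1.48 under DESeq2. For Pdcd1lg2, Ctla4, Tnfrsf9 and Havcr2 the alternatives were chosen after seeing the data. With the replicate block Cd274 was 2.05 in adipocyte over unconditioned medium (limma adjusted p = 3.8e-07), 2788 genes were called there, and the block changed no call of the members in any comparison. Tnfrsf9 in stromal over unconditioned medium then lay just above the threshold, at 0.22 (limma adjusted p = 0.0503). In stromal over unconditioned medium Pdcd1lg2 was 0.14 under the median of ratios and 0.17 under DESeq2, and -0.39 to 0.0327 with a replicate left out. Ctla4 was 0.33 under the median of ratios, 0.12 under edgeR with TMM and 0.34 under DESeq2, and -0.10 to 0.0531 with a replicate left out. DESeq2 scaled by the same median of ratios, so its values are no separate check of the scaling. Tnfrsf9 was 0.57, 0.37 and 0.58 under the median of ratios, TMM and DESeq2 and called in each (limma or count-model adjusted p = 0.00684, 0.0447 and 7.41e-04). In adipocyte over stromal medium Cd274 was 0.71, 0.47 and 0.73 under them, called in each, and -0.0891 to 0.391 with a replicate left out, while Havcr2 was -0.23 under the median of ratios and -0.24 under DESeq2, neither called. TMM moved log2 fold changes by a median of 0.45, 0.14 and 0.31 in the 3 comparisons, which gave 1015 genes higher and 1744 lower, 805 and 826, and 1063 and 1411. DESeq2 gave 1090 and 1042, 1173 and 584, and 1178 and 1090, and edgeR on the recovered reads with the authors' size factors 967 and 1817, 614 and 1071, and 977 and 1634. The cause of these changes beyond the scale shift itself was not tested. Havcr2 and Pdcd1lg2 had the fewest reads of the members, and every comparison rests on 3 samples a group.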

Other observations

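Tnfsf4, the gene of the ligand of OX40, whose receptor gene Tnfrsf4 was not analysed here, was picked after its values were seen. It had 335, 376 and 302 normalized counts in adipocyte medium and 896, 366 and 563 in stromal medium, against 154, 134 and 133 in unconditioned medium. Both conditioned media lay above unconditioned medium and overlapped each other. The log2 fold change was 1.26 in adipocyte (limma adjusted p = 3.99e-04) and 2.02 in stromal medium (limma adjusted p = 3.21e-05), and adipocyte over stromal medium gave -0.76 (limma adjusted p = 0.0139).

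Insl6, the nearest gene of the table upstream of Cd274 in RefSeq's order, 3 genes away, was also picked after its values were seen. Its log2 fold change was 0.85 in adipocyte and 1.99 in stromal medium over unconditioned medium, both called, and -1.14 in adipocyte over stromal medium, called lower (limma adjusted p = 6.55e-04).

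Replicate 3 of adipocyte medium and replicate 2 of stromal medium were the lowest of their groups for Cd274. The same 2 samples were lowest for Stat2, Irf1 and Irf8, 3 of the 12 tested interferon list genes, and for 605 of the 2868 tested genes, which is 21.1%. This pattern was noticed in the data, and no test was made of it.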
